A study of Mus musculus with 80 samples.

Results

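The genes described here are those whose symbol begins with Kcn, the prefix of the potassium channel genes. They were chosen by symbol alone, and 77 of the 25160 genes listed for the 80 sequenced cells had such a symbol. They code for the pore-forming subunits of voltage-gated, calcium- or sodium-activated, inwardly rectifying and two-pore domain channels, for the beta subunits and potassium channel interacting proteins (KChIP) that bind these pores, and, in 4 cases, for noncoding RNAs named after a neighbouring channel gene.

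Potassium channels let potassium leave the cell, and so pull the membrane towards its resting level. In medium spiny neurons (MSN), the GABAergic projection neurons of the striatum, inward rectifiers of the Kir2 group hold the membrane at a very negative resting level. Kv4 channels carry a fast, inactivating current and Kv1 channels a slowly inactivating one, and both delay firing, while Kv7 channels and the calcium-activated BK and SK channels limit repetitive firing. MSN of the direct pathway bear the D1 dopamine receptor and those of the indirect pathway the D2 receptor, and the receptors act on several of these currents.

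The cells came from the dorsomedial striatum of adult mice heterozygous for the reporter transgenes Drd1a-TdTomato and Drd2-EGFP, so the cells of both groups carried both transgenes. Each reporter is driven by a bacterial artificial chromosome with the regulatory region of its dopamine receptor gene, which in the case of Drd2 is also active in cholinergic interneurons (ChI). Of the 80 cells, 40 were sorted as Drd1 and 40 as Drd2. They were gated on a nuclear stain that had been injected into the region and on the absence of a dead-cell stain. No treatment was given beyond that labelling, and the labels name 0 animals, although the study describes several experiments and animals, so that each group was taken as 1 sample and no test was made between them. The plot of the genes with the highest means shows these cells one by one.

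Of the Drd2 cells, 2 held more than 100 TPM of Chat, the enzyme that makes acetylcholine, and were treated as ChI. The study took a few of its cells as unusable without naming them, and all 80 were kept here. This left 40 D1 MSN and 38 D2 MSN, 78 in all. TPM are transcript levels corrected for length and scaled within each cell, and over the listed genes they summed to between 506588 and 958040. Rescaling these sums to a shared total left the counts of genes past a log2 fold of 1, given below, as they were. Because TPM hold no read counts, depth is unknown here, and a gene at 0 is said to be listed at 0. The number of genes above 1 TPM ran from 648 to 8657 per D1 MSN with a median of 5722, and from 1215 to 7942 per D2 MSN with a median of 4927.5. Plate FACS051_5 held 18 D1 MSN and 16 D2 MSN, plate FACS086_4 held 21 and 19, and plate FACS086_9 held 1 and 3. The order of the medians of genes per cell was opposite on the larger plates, with 5109 in D1 MSN against 5923 in D2 MSN on FACS051_5 and 5730 against 4617 on FACS086_4.

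Markers were used to check the labels. Drd1 was above 1 TPM in 38 of 40 D1 MSN and 3 of 38 D2 MSN. Adora2a, a marker of D2 MSN, was so in 1 and 31. Among other D1 markers, Pdyn was found in 22 and 2, Isl1 in 24 and 1, and Tac1 in 39 and 22. Among other D2 markers, Drd2 was found in 2 D1 and 26 D2 MSN and Gpr6 in 0 and 30. Penk was above 1 TPM in all 40 D1 and all 38 D2 MSN, with medians of 11.4 and 10688 TPM. The MSN markers, 7 genes in all, summed to a median of 3072 TPM over the D1 cells and 3599 TPM over the D2 MSN. The Drd1 cell in well D04 of plate FACS051_5 stood apart, with 134 TPM over the MSN markers, 2.03 TPM of Drd1 and 2845 TPM over the astrocyte markers, against at most 45.5 TPM of the latter in any D2 MSN. A further Drd1 cell, in well B02 of FACS086_4, had 648 genes, 3.65 TPM over the MSN markers, Drd1 listed at 0 and 2 potassium channel genes above 1 TPM. Both are kept below, each difference that rests on the D04 cell is also given without it, and without the 3 cells under 2000 genes, B02 among them, the counts of genes past a log2 fold of 1 were the same.

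**Figure D1:**
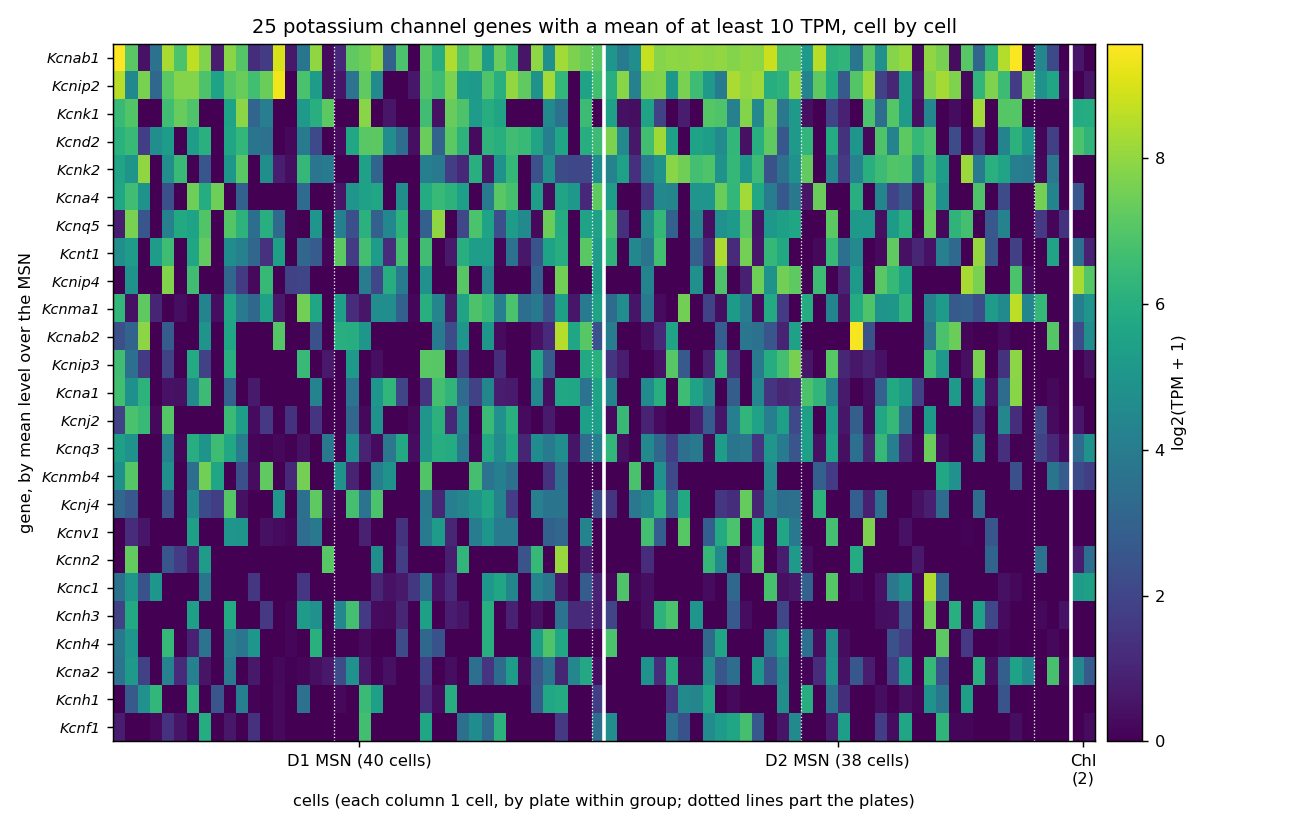
Level of 25 potassium channel genes that averaged 10 TPM or more over the 78 MSN, as log2(TPM + 1), with a row for each gene and a column for each cell (40 D1 MSN, 38 D2 MSN and 2 ChI, parted by white lines, with dotted lines between plates). Kcnab1 and Kcnip2 are bright across both MSN groups and dark in the 2 ChI, and every row has cells at or near 0.

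Nearly the whole family was found somewhere among the MSN. At the limit of 1 TPM, 71 of the 77 genes were found in at least 1 of the 78 MSN, and 6 were not. Of these 6, Kcnc2, Kcnh8, Kcnk9, Kcnk10 and Kcnrg were listed at 0 in every MSN, and Kcnk12 reached 0.40 TPM at most. The mean over the MSN reached 1 TPM for 51 genes and 10 TPM for 27. At the sparse end, 31 genes were found in fewer than 10% of the MSN, these 6 included, and 16 genes in only 1 or 2 cells. The matching shares over all listed genes were not worked out, so these counts describe the potassium channel genes only.

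In the opposite direction, 17 of the 77 genes (22.1%) were found in at least 50% of the MSN, where 13.7% of all listed genes were. These 17 held voltage-gated pores (Kcna1, Kcna2, Kcna4, Kcnd2, Kcnq3 and Kcnq5 among them), inward rectifiers (Kcnj2 and Kcnj4), two-pore domain channels (Kcnk1 and Kcnk2), the large-conductance pores Kcnma1 and Kcnt1, the accessory subunits Kcnab1 and Kcnip2, and the noncoding Kcnq1ot1. Each was thus present in D1 and in D2 MSN alike at some level.

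A single MSN held between 2 and 36 of the genes above 1 TPM. The median was 22 in D1 MSN, where the range was 2 to 36, and 18.5 in D2 MSN, where it was 2 to 29. Cells in which more genes of any kind were found also held more of these, with a Pearson correlation of 0.885 over the 78 MSN, 0.893 within D1 MSN and 0.873 within D2 MSN, given here as a description of cells whose depth is shared by both counts. Summed over the 77 genes, the level was 7.13 to 2088 TPM in D1 MSN with a median of 1030 TPM, and 9.56 to 2103 TPM in D2 MSN with a median of 1016 TPM. The summed level therefore covered the same range in both groups, while the number of genes found followed how much of the transcriptome was found in a cell.

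**Figure D2:**
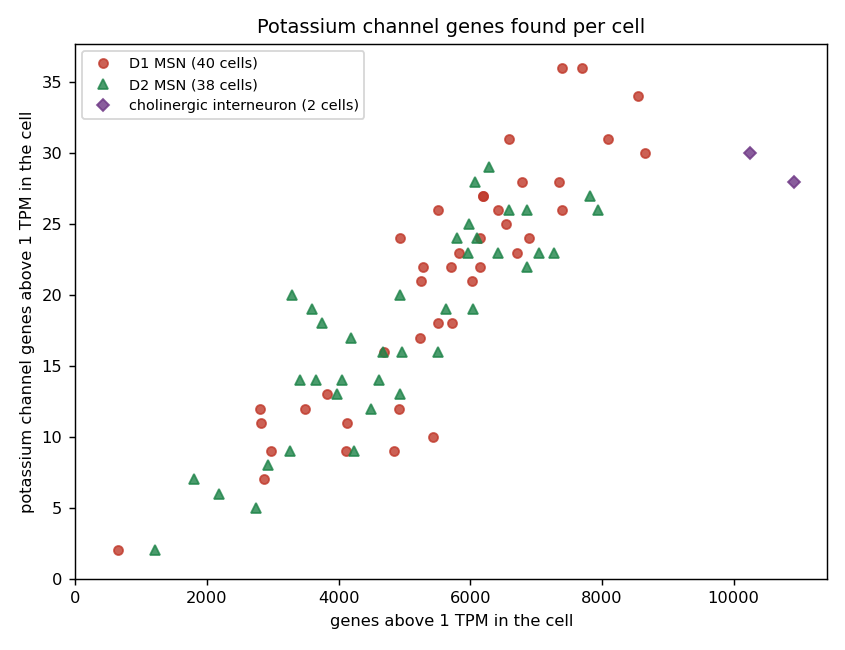
Number of potassium channel genes above 1 TPM in a cell against the number of all genes above 1 TPM in it, for 40 D1 MSN, 38 D2 MSN and 2 ChI, with a point for each cell. Both MSN groups climb together from 2 potassium channel genes in the cells with the fewest genes. The highest counts, 36 in D1 MSN and 29 in D2 MSN, are not in the cells with the most genes.

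Among single families, those of accessory subunits gave the largest shares of the summed level. The Kv beta genes, whose proteins bind Kv1 channels and can speed their inactivation, made up 19.3% of it over the MSN, and the KChIP genes, whose calcium-binding proteins carry Kv4 channels to the surface and tune their inactivation, 17.6%. Within the first group, Kcnab1 gave 82.3%, and within the second, Kcnip2 gave 65.2%. In 27 of the 78 MSN Kcnab1 was the potassium channel gene with the highest level, and in 17 it was Kcnip2.

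Kcnab1, which codes for Kv beta 1, had the highest mean of all. In D1 MSN it ran from 0 to 759 TPM with a median of 131 TPM, and 34 of 40 cells were above 1 TPM (95% interval 70.2% to 94.3%). In D2 MSN it ran from 0 to 732 TPM with a median of 137 TPM, and 34 of 38 cells were above 1 TPM (75.2% to 97.1%). These exact Clopper-Pearson intervals, like those below, cover counting error only. The groups overlapped over their whole range, and the log2 fold of the means plus 1 TPM, D1 over D2, was -0.15, with -0.29 on plate FACS051_5 and -0.24 on plate FACS086_4.

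Kcnip2, the gene of KChIP2, was as level. It ran from 0 to 658 TPM in D1 MSN with a median of 97.5 TPM, and from 0.14 to 330 TPM in D2 MSN with a median of 74.5 TPM. It was above 1 TPM in 33 of 40 and 35 of 38 cells, and its log2 fold was -0.03. The other KChIP genes were sparser, with Kcnip4 in 18 D1 and 15 D2 MSN and Kcnip3 in 17 and 16. Kcnip1 was above 1 TPM in 1 MSN only, at 1.25 TPM.

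Kcnd2, the pore that KChIP2 joins, gave 96.4% of the Kv4 level. It ran from 0 to 164 TPM in D1 MSN with a median of 38.3 TPM, and from 0 to 292 TPM in D2 MSN with a median of 27.5 TPM, and was found in 31 of 40 and 28 of 38 cells. Its log2 fold was -0.10 over all cells, but -1.29 on plate FACS051_5 and 0.54 on plate FACS086_4, so the larger plates ordered the groups in opposite ways. The related pore Kcnd3 was found in 2 of 78 MSN, at 2.86 and 4.42 TPM.

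Kcnd2 and Kcnip2 were found together in 56 of the 78 MSN, Kcnd2 alone in 3, Kcnip2 alone in 12, and neither in 7. Dpp6, whose protein is a further part of the Kv4 complex, was found with Kcnd2 in 46 MSN. Since the number of genes found varied between cells, such counts describe these cells only, and no test was made of them. Since both transcripts were found in most of these cells, the promoters of the pair are shown from RefSeq on build GRCm38.p6, 5′ to 3′ on the strand of the gene, from 250 bases before to 50 after the start. The capitals mark GGGCGG, the GC box bound by Sp1, searched on both strands (GGGCGG or CCGCCC).

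Kcnd2 (chr6:21215096-21215395, plus strand): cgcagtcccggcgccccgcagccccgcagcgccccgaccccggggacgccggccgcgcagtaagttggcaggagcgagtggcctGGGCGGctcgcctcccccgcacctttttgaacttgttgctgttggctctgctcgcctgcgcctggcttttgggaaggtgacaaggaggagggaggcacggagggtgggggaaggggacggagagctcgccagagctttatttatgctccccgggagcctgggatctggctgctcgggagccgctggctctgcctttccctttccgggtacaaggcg
Kcnip2 (chr19:45816014-45816313, minus strand): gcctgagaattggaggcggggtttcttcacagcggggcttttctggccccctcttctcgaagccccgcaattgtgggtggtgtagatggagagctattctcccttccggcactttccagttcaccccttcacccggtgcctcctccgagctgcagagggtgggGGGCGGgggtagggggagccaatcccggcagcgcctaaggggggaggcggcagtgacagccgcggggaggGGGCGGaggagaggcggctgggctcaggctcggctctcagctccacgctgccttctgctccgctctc

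The Kcnd2 window held the GC box in 1 place and the Kcnip2 window in 2. Of the 74 promoter entries of potassium channel genes, 36 (48.6%) held it, against 35.7% of all 32851 promoter entries. Some of these genes had several entries and others had none. Such a match is a description of the letters in the window. GC content was 68.7% in the Kcnd2 window and 67% in that of Kcnip2, and its median was 58.3% over the promoters of the potassium channel genes and 52.7% over all promoters.

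The Kv1 pores made up 9% of the summed level. Kcna4, an inactivating pore, gave 44% of that share and Kcna1, a non-inactivating one, 25.5%. Kcna4 was found in 25 D1 and 24 D2 MSN with a log2 fold of -0.07, and Kcna1 in 22 and 22 with -0.16. On FACS051_5 and FACS086_4, Kcna4 had -0.52 and 0.36, and Kcna1 had 0.04 and -0.52. Kcna2, which assembles with Kcna1 in axons, was found in 18 D1 and 21 D2 MSN. D1 MSN averaged 7.22 TPM and D2 MSN 15.97 TPM, a log2 fold of -1.05 that was -0.96 on plate FACS051_5 and -0.78 on FACS086_4. Kcna2 and Kcnab1 were found together in 37 MSN, and only 2 MSN held Kcna2 without Kcnab1.

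Kcna1 lies on chromosome 6 between Kcna5 and Kcna6, with gaps of 104985 and 61945 bases on build GRCm38. These neighbours were not found alike, for Kcna1 was above 1 TPM in 44 MSN, Kcna5 in 20 and Kcna6 in 15. On chromosome 3, Kcna2 was found in 39 MSN and its neighbour Kcna3 in 1. On chromosome 11, Kcnj2 was found in 39 MSN and its neighbour Kcnj16 in 5. Of 2 genes a short way apart, then, 1 could be found in 50% or more of the cells and the other hardly at all.

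The silent subunits and Kv3 pores were sparse. Kcnv1 averaged 7.35 TPM over the D1 MSN and 22.6 TPM over the D2 MSN, with a log2 fold of -1.50, but it was found more often in D1 MSN, in 17 cells against 12. Kcnc1, a Kv3 pore for rapid repolarisation, had means of 6.26 and 20.3 TPM and a log2 fold of -1.55, and was likewise found in 17 D1 against 9 D2 MSN. The highest D2 MSN held 343 TPM of Kcnc1, the next 132 TPM, and the highest D1 MSN 49.8 TPM. For both genes the mean and the share of cells thus ordered the groups in opposite ways, and the D1 median of Kcnc1 was 0.48 TPM and the D2 median 0.11 TPM.

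D1 MSN were compared with D2 MSN for the 48 potassium channel genes that averaged 1 TPM or more across the MSN and had a value above 0 in each group. A log2 fold above 1, higher in D1 MSN, was seen in 10 of the 48 genes (20.8%), where 18.4% of all 14631 genes compared in the same way had one. A log2 fold below -1, higher in D2 MSN, was seen in 7 of the 48 (14.6%), against 12.9% of all genes. Both shares lay near those of all genes. With the condition that both larger plates gave the same direction, 8 genes remained higher in D1 MSN (12.9% of all genes did) and 6 higher in D2 MSN (8.22% of all genes).

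The median log2 fold of the 48 genes was 0.25, beside 0.08 over all genes compared, and the folds ran from -1.57 to 3.31. Among the 27 genes that averaged 10 TPM or more, 20 lay within a log2 fold of 1 in either direction, 3 were above, Kcnmb4 and Kcnn2 among them, and 4 below (Kcnk2, Kcnv1, Kcnc1 and Kcna2). These were 11.1% above and 14.8% below, against 11.7% and 8.85% of all 7500 genes compared at that mean. Of the 43 genes with a fold on both larger plates, 27 had the same sign on both, and the share over all genes was not worked out.

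**Figure D3:**
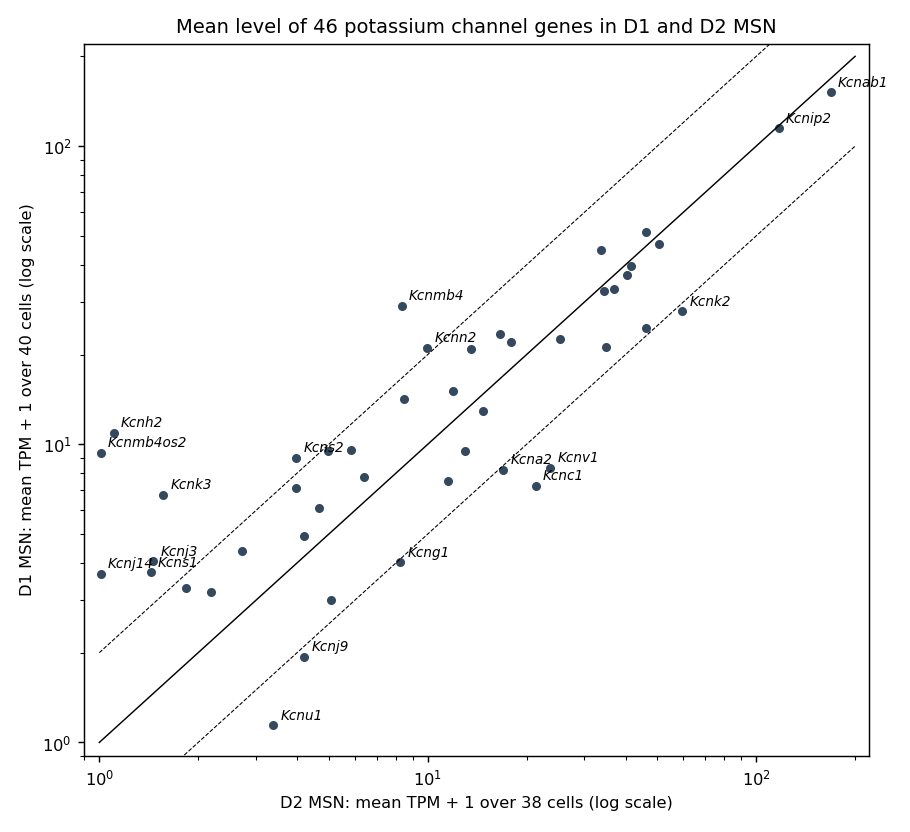
Mean TPM + 1 of 46 potassium channel genes over 40 D1 MSN against that over 38 D2 MSN, both on log scales, with a line of equal means and dashed lines at a log2 fold of 1 and -1. The genes with the highest means, Kcnab1 and Kcnip2, lie near the line of equal means, and those farthest from it, among them Kcnh2 and Kcnmb4os2, have means near 0 in D2 MSN.

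The share of cells in which a gene was found could also be compared, with the caution that D1 MSN held more genes per cell at the median and that TPM cannot be thinned to an even depth. Of the 48 genes, 7 were found more often in D1 MSN by at least 15 percentage points, where 11% of all genes were, and 1 in D2 MSN, where 2.14% were. Among the 7 were Kcnh7, Kcnmb4, Kcnh2, Kcnq1ot1, Kcnc1 and Kcnj4, and the 1 was Kcnk2. More of the genes were found at all more often in D1 MSN (34 of 48, 70.8%), as were 62.8% of all genes.

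Of the Kv7 pores, which open near rest and damp repeated firing, Kcnq5 was found in 30 D1 and 24 D2 MSN with means of 43.9 and 32.8 TPM (log2 fold 0.41), and Kcnq3 in 24 and 24 with 21.02 and 16.9 TPM (0.30). Kcnq3 and Kcnq5 were found together in 37 of the 78 MSN.

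Kcnmb4, the brain beta subunit of the BK channel, which slows its gating and alters its toxin binding, ran from 0 to 190 TPM in D1 MSN with a median of 1.002 TPM, and from 0 to 114 TPM in D2 MSN with a median of 0. Of 40 D1 MSN, 20 held it (interval 33.8% to 66.2%), and of 38 D2 MSN, 11 did (15.4% to 45.9%), and it was listed at 0 in 18 and 27. The mean of 28.2 TPM against 7.34 TPM gave a log2 fold of 1.81, with 1.93 on FACS051_5 and 1.60 on FACS086_4. The direction was thus shared by both plates, while cells of either group could be at 0. Rescaling each cell to the upper quartile of widely found genes turned the log2 fold to -1.16. In that scaling 2 D2 MSN held the highest values, 1373 TPM in well A11 of FACS051_5 (113.6 TPM before, multiplied by 12.1) and 1091 TPM in well A12 of FACS086_9 (5.73 TPM before, multiplied by 190), while the highest D1 MSN held 192 TPM.

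Its pore, Kcnma1, did not share that order. It was found in 27 D1 and 26 D2 MSN, with means of 32.1 and 36.02 TPM and a log2 fold of -0.16, which was 0.58 on FACS051_5 and -0.67 on FACS086_4. Pore and beta subunit were found together in 15 of 40 D1 and 5 of 38 D2 MSN, and Kcnma1 was without Kcnmb4 in 12 and 21. Kcnmb4 lies at 116417861 to 116473878 on the minus strand of chromosome 10, and exons of the noncoding Kcnmb4os1 and Kcnmb4os2 overlap it on the plus strand. Kcnmb4os2 had a log2 fold of 3.21 that rested on 1 D1 MSN at 334 TPM, beside at most 0.40 TPM in D2 MSN. Exons on the other strand were annotated for 27 of the 77 genes, among them Kcnab1, Kcnk2 and Kcnt2, and it is not stated that reads were counted by strand, so reads of such partners cannot be told apart.

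Kcnh2, an ether-a-go-go related (Kv11) pore known from the heart's repolarising current, had the highest fold of all, from few cells. It ran from 0 to 159 TPM in D1 MSN, and from 0 to 3.58 TPM in D2 MSN, with medians of 0. More than 1 TPM was seen in 9 of 40 D1 cells (interval 10.8% to 38.5%) and 1 of 38 D2 MSN (0.067% to 13.8%). The 9 D1 MSN held, in falling order, 159, 122, 43.7, 28.0, 27.3, 9.57, 3.42, 1.68 and 1.46 TPM. The log2 fold was 3.31 over all cells and 3.31 on plate FACS051_5, and on FACS086_4, where 4 of 21 D1 MSN held the gene, it was listed at 0 in all 19 D2 MSN. The 2 ChI, which are also Drd2 cells, held 57.3 and 37.0 TPM, and with them in the Drd2 group the log2 fold was 1.66.

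The other genes of that family, Kv10 to Kv12, were found in a minority of cells. Kcnh1 was found in 15 D1 and 12 D2 MSN, Kcnh3 in 16 and 11, Kcnh4 in 15 and 11, and Kcnh7 in 14 and 5. Of these, Kcnh7 had a log2 fold of -1.49 on plate FACS051_5 and 1.59 on FACS086_4, with 0.28 over all.

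Kcnk2, the two-pore domain channel TREK-1, which is opened by stretch and lipids, had the highest mean of the genes with a log2 fold below -1. It ran from 0 to 249 TPM in D1 MSN with a median of 6.16 TPM, and from 0 to 280 TPM in D2 MSN with a median of 28.7 TPM. Of 40 D1 MSN, 27 held it (interval 50.9% to 81.4%), against 34 of 38 D2 MSN (75.2% to 97.1%). On FACS051_5 it was found in 12 of 18 D1 and 16 of 16 D2 MSN, and on FACS086_4 in 14 of 21 and 17 of 19. The median of genes per cell was higher in D2 MSN on the first plate and in D1 MSN on the second, and its part in these shares was not tested. The groups overlapped, with lower quartiles of 0.20 TPM (D1) and 14.8 TPM (D2). The log2 fold of the means, 26.9 against 58.6 TPM, was -1.09, with -0.61 on plate FACS051_5 and -2.04 on FACS086_4, and taken as the difference of mean log2 values it was -1.71.

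Kcnk1, the channel TWIK-1, gave 50.4% of the level of the two-pore domain group and Kcnk2 44.6%. Kcnk1 was found in 22 D1 and 20 D2 MSN, with means of 50.5 and 45.2 TPM and a log2 fold of 0.16. Kcnk3, the acid-sensitive TASK-1, was found in 5 D1 and 2 D2 MSN, and its log2 fold of 2.11 rested on 2 D1 MSN at 115 and 103 TPM.

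**Figure D4:**
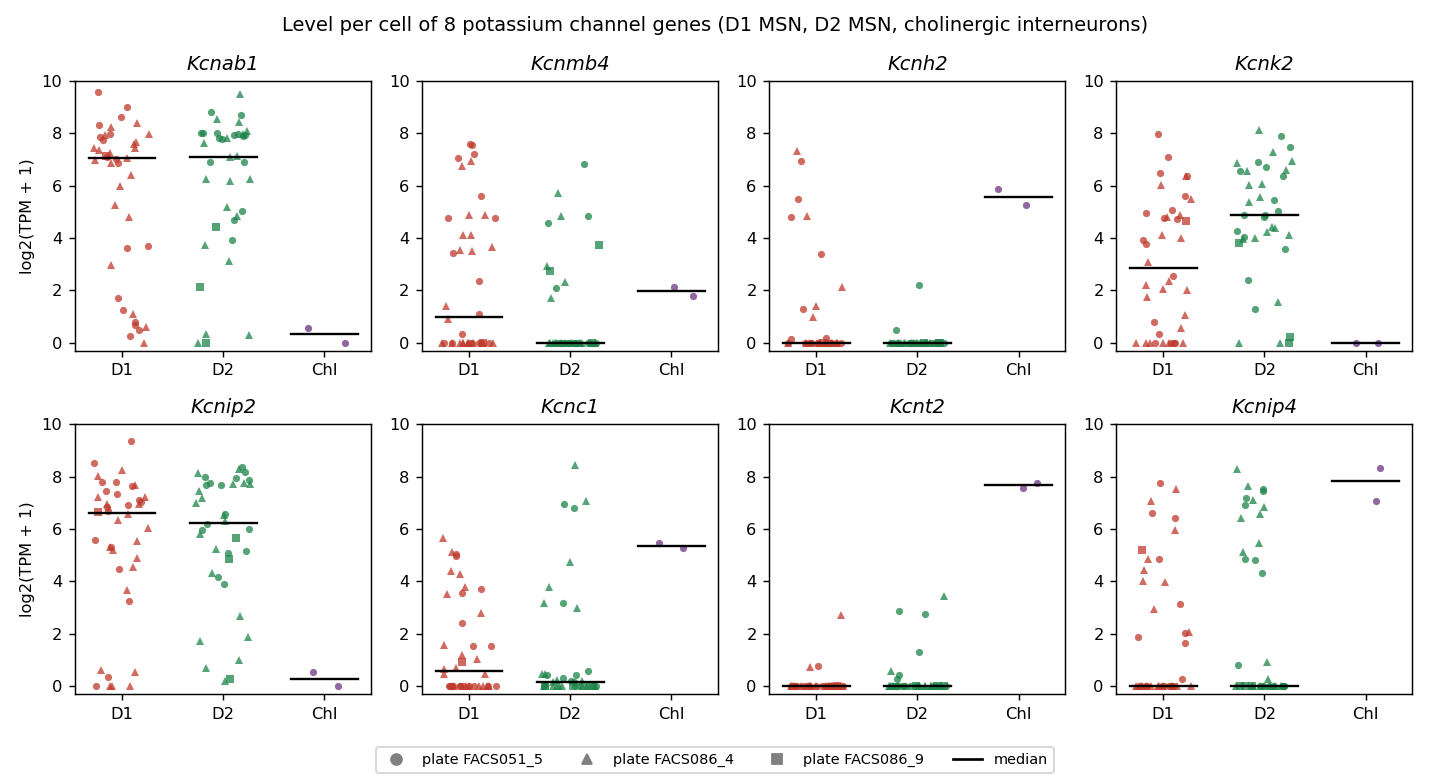
Level of 8 potassium channel genes in each cell, as log2(TPM + 1), for 40 D1 MSN, 38 D2 MSN and 2 ChI, with a mark for each cell (shape by plate) and a line at the median of the group. Kcnmb4 and Kcnh2 reach high levels in more D1 than D2 MSN, Kcnk2 in more D2 MSN, and Kcnt2 is high only in the 2 ChI among these 3 groups.

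Of the inward rectifiers, the Kir2 genes Kcnj2 and Kcnj4 gave 42.4% and 36.1% of the level. Kcnj2 was found in 20 D1 and 19 D2 MSN with means of 22.4 and 15.6 TPM and a log2 fold of 0.50. Kcnj4 was found in 25 D1 and 17 D2 MSN with means of 19.8 and 12.5 TPM and a log2 fold of 0.63, which was -0.16 on FACS051_5 and 1.65 on FACS086_4. The further Kir2 gene Kcnj12 was found in 1 D1 and 1 D2 MSN.

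Kcnj14, also of the Kir2 group, was found in a single MSN, the D04 cell with astrocyte markers, at 107 TPM, and its log2 fold of 1.86 came from that cell. Without the cell, the D1 MSN were listed at 0. The same cell held the highest level among MSN of Kcnj10, an inward rectifier known from astrocytes, at 15.5 TPM, and 9 potassium channel genes above 1 TPM in all. Leaving it out gave 8 genes with a log2 fold above 1 in place of 10, and again 7 below -1.

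Of the G protein-gated Kir3 genes, which are opened by receptors such as the D2 receptor, Kcnj3, Kcnj5 and Kcnj9 were each found in fewer than 10 MSN, and Kcnj6 was not analysed here. Kcnj5 was found in 6 D1 and 3 D2 MSN. Kcnj3 was found in 4 D1 and 2 D2 MSN and Kcnj9 in 2 and 3, and no MSN held both of these. The log2 folds of Kcnj3 and Kcnj9, 1.47 and -1.12, rested on these few cells. Kcnj11, the pore of the ATP-sensitive channel, was found in 8 D1 and 6 D2 MSN, and 4 of these 14 cells also held Abcc8, its sulphonylurea receptor.

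Of the pores opened by sodium or calcium, Kcnt1 (Slack), activated by sodium, was found in 29 of 40 D1 and 22 of 38 D2 MSN. Its medians were 20.7 and 1.89 TPM, while its means of 35.9 and 39.4 TPM gave a log2 fold of -0.13. That fold was -0.95 on FACS051_5 and 0.49 on FACS086_4, so the larger plates ordered the groups in opposite ways. Kcnn2, an SK pore opened by calcium through calmodulin, was found in 11 D1 and 8 D2 MSN with means of 20.1 and 8.97 TPM. Its log2 fold of 1.08 was 0.16 on FACS051_5 and 2.38 on FACS086_4, and 0.86 without the D04 cell, which held 135 TPM. Kcnn3, a further SK pore, was found in 13 and 8 MSN with a log2 fold of 0.93, and Kcnn1 in 1 MSN at 1.34 TPM.

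Further genes with a log2 fold past 1 in size were each found in few cells, namely Kcns1 (6 D1 and 4 D2 MSN, log2 fold 1.38), Kcns2 (7 and 4, 1.18), Kcng1 (8 and 5, -1.04) and Kcnu1, which is known as a sperm channel and whose log2 fold of -1.57 came from a D2 MSN at 88.2 TPM. In contrast, the noncoding Kcnq1ot1, transcribed against Kcnq1 at an imprinted locus, was listed above 0 in every MSN. It ran from 0.18 to 19.4 TPM in D1 MSN with a median of 4.90 TPM, and from 0.16 to 10.5 TPM in D2 MSN with a median of 1.41 TPM, with a log2 fold of 0.84 that was 0.63 on FACS051_5 and 0.995 on FACS086_4.

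Seen by family, the D1 and D2 MSN levels lay within a log2 fold of 0.4 of each other for several groups, as the plot of summed family levels shows. The Kv beta genes had a log2 fold of -0.13, KChIP -0.31, Kv1 -0.20, Kv4 -0.07, the two-pore domain genes -0.30 and the calcium- and sodium-activated pores 0.09. Farther from 0, among the families in the plot, were Kir at 0.66, Kv10 to Kv12 at 0.56, the silent subunits at -0.59 and Kv3 at -0.78. The BK beta genes had 1.77, of which Kcnmb4 gave 97.9% of the level, with 1.93 and 1.51 on the larger plates. The noncoding genes had 2.16, with 0.60 on FACS051_5 and 2.81 on FACS086_4, the plate of the single cell with 334 TPM of Kcnmb4os2.

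**Figure D5:**
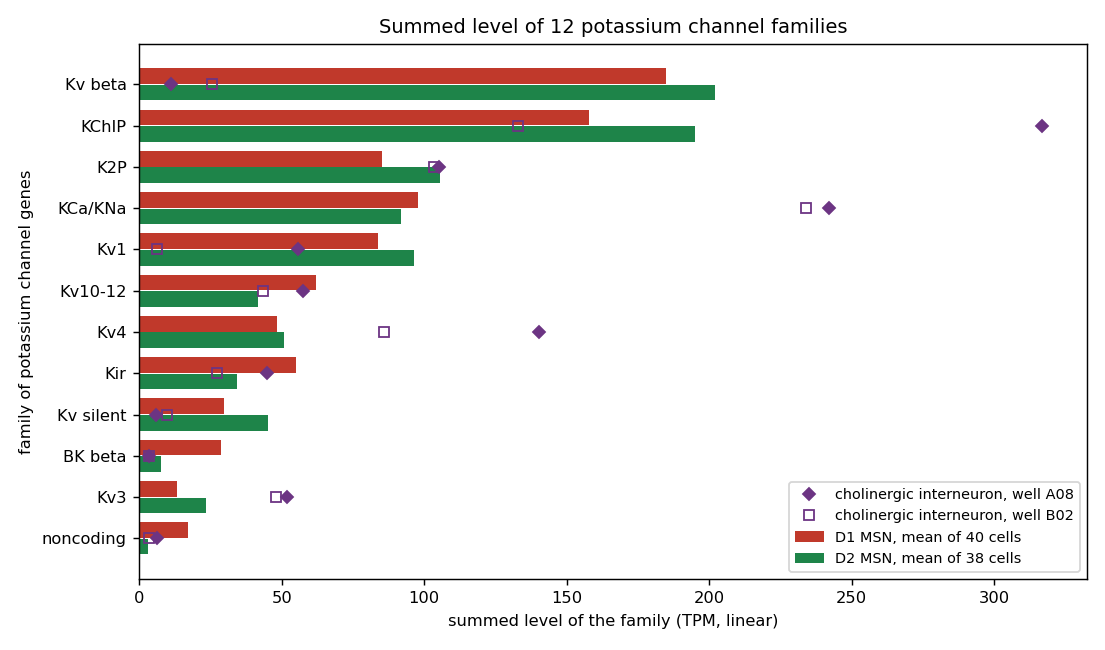
Summed TPM of 12 families of potassium channel genes, as the mean over 40 D1 MSN and over 38 D2 MSN (bars from 0) and in each of the 2 ChI (diamond and square). Kv beta and KChIP have the longest bars in both MSN groups, the BK beta bar is longer in D1 MSN, and the ChI lie below the Kv beta bars and above those of the calcium- and sodium-activated pores.

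The ChI gave a different set of potassium channel genes, with the limit that they are 2 cells of 1 plate, with more genes per cell than any MSN, and carry no replicate check. Both held more than the highest of the 78 MSN for 3 of the 77 genes (3.9%), where this was so for 1.09% of all genes. Kcnt2, the sodium-activated pore Slick, stood at 214 and 189 TPM, against at most 9.79 TPM in an MSN and a mean of 0.40 TPM. Kcnd3, a Kv4 pore, stood at 18.1 and 10.01 TPM against at most 4.42 TPM. Kcnk12, the two-pore domain subunit THIK-2, stood at 45.8 and 6.32 TPM against at most 0.40 TPM.

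The promoters of Kcnt2 and Kcnd3, each with a single entry, are shown beside those of the widely found Kcnd2 and Kcnip2, with the same window, build and search.

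Kcnt2 (chr1:140245468-140245767, plus strand): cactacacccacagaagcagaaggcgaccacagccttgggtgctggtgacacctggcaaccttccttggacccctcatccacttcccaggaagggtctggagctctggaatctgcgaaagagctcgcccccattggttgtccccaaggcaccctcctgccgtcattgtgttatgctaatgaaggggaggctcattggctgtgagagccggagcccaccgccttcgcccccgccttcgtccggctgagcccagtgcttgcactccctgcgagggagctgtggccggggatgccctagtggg
Kcnd3 (chr3:105451640-105451939, plus strand): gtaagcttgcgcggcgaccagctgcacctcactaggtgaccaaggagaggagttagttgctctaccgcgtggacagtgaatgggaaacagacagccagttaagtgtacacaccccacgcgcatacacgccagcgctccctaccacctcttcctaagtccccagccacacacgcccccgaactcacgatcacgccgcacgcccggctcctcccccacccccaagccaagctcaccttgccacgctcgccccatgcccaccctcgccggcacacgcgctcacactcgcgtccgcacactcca

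Neither window held the GC box, so no letters are in capitals. Their GC content was 62.7% for Kcnt2 and 64% for Kcnd3. Kcnk12, also higher in both ChI than in every MSN, has a single entry as well, which is not printed here. That window held the GC box in 1 place and had a GC content of 64.3%.

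Of the 17 potassium channel genes found in at least 50% of the MSN, 7 (41.2%) were at or below 1 TPM in both ChI, where 3.94% of the 3448 genes so widely found in MSN were. These were Kcnab1 at 0.50 and 0 TPM, Kcnip2 at 0 and 0.44 TPM, Kcnj2 at 0.50 and 0 TPM, and Kcnk2, Kcnq5, Kcna1 and Kcnj4, which were listed at 0 in both. The 2 genes with the highest means in MSN thus lay near 0 in the ChI. So did Kcnj2 and Kcnj4, the Kir2 genes found widely in MSN.

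Other genes were found in both ChI at levels within or close to the range of the MSN. Kcnd2 stood at 116 and 75.7 TPM and Kcnk1 at 57.5 and 60.4 TPM. Kcnip4, a KChIP gene found in 33 of 78 MSN, stood at 317 and 132 TPM, against a highest MSN value of 316 TPM. Kcnc1 stood at 37.8 and 42.7 TPM, and 5 of 78 MSN were above the higher of these. Kcnrg, a gene whose protein binds Kv channel subunits, was outside that range, for it was listed at 0 in every MSN. It was at 29.2 TPM in the ChI of well A08 and listed at 0 in that of well B02.

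Of 26 genes listed as partners of potassium channels or as relatives that also pass sodium, 24 were in the table, 18 averaged 1 TPM or more in the MSN, and 11 were found in at least 50% of the MSN. Among the 18, a log2 fold above 1 was seen for Cntn2 (2.12), an axonal adhesion protein that gathers Kv1 channels, and one below -1 for Dpp10 (-1.28), a Kv4 partner, and Abcc8 (-1.01), that is 1 and 2 of 18, where 18.4% and 12.9% of all genes had such folds. Cntn2 was found in 3 D1 and 4 D2 MSN, rested on 2 D1 MSN at 151 and 94.1 TPM, and had -0.21 on FACS051_5 and 2.66 on FACS086_4. Abcc8 had 0.051 and -1.43 on these plates and rested on 1 D2 MSN at 226 TPM, while Dpp10, found in 17 D1 and 21 D2 MSN, had -0.85 and -1.71. The median over the 18 was 0.02. Ank3, which anchors channels at the axon initial segment, had means of 213 and 182 TPM in D1 and D2 MSN. The cation channel genes Hcn3 and Hcn4 did not reach 1 TPM in any MSN, while the ChI held 13.2 and 26.0 TPM of Hcn3 and 6.65 and 19.3 TPM of Hcn4.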

How the data were processed

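The deposited file holds TPM per gene and cell, made by the authors from STAR 2.5.0 alignments (mm10/GRCm38) and featureCounts 1.5.1 counts. How TPM were derived is not given in the sources used here. Libraries came from the SMARTer v3 kit. Potassium channel genes and all lists were chosen with earlier results of these data known.

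The log2 fold was that of the group means plus 1 TPM, D1 over D2. Against a group at 0 in all cells, folds were left out. A gene was found in a cell above 1 TPM, with exact Clopper-Pearson 95% intervals. No test was run, since the labels name no animal. ChI were left out of the D2 MSN (Chat above 100 TPM, set after values were seen). All other cells were kept. Genes were named that (a) averaged at least 10 TPM and were found in 25% of a group, (b) passed a log2 fold of 1 in size with the same direction on both larger plates, (c) are subunits known for MSN or each channel class, or (d) had both ChI above every MSN. Others (Kcna3, Kcna5, Kcna6, Kcnj10, Kcnj16, Kcnu1, Kcnmb4os1, Kcnmb4os2, Kcnc2, Kcnh8, Kcnrg and the like) are named for their values or position. Kcnj6 was not analysed here, and some genes within the counts are not reported here by name. Positions are from GENCODE M21. Alternatives changed the pseudocount, the mean, the filter, the scaling, the detection limit and the cells. The steps were tested on simulated data. Scripts ran in Python 3.11.15 with matplotlib 3.10.9, scipy 1.17.1, pandas 2.3.3 and numpy 2.4.6.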

Additional observations from a re-analysis of the deposited data

Results flagged for a closer look

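The ChI belong to neither MSN group, and 3 potassium channel genes were higher in both of them than in each of the 78 MSN. Kcnt2 stood at 214 TPM in the ChI of well A08 and at 189 TPM in that of well B02. Kcnk12 stood at 45.8 and 6.32 TPM, and Kcnd3 at 18.1 and 10.01 TPM, in the same order. The values are those of 2 cells, and no cause was tested.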

How the results depend on the processing

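The count of 10 genes with a log2 fold above 1 became 1 with a pseudocount of 10 TPM, 2 when mean log2 values were subtracted, 4 with the mean of the folds within the larger plates, and 3 with a filter at a mean of 10 TPM. The count of 7 genes below -1 became 0 with a pseudocount of 10 TPM, 1 with mean log2 values and 4 with the filter at 10 TPM. These were 0%, 2.08% and 14.8% of the potassium channel genes compared, against 2.68%, 1.67% and 8.85% of all genes. With the pseudocount of 10 TPM, 1 of the 17 genes past the fold remained, Kcnmb4. With mean log2 values 3 remained, with the mean of plate folds 8, without plate FACS051_5 12, without plate FACS086_4 11 and without FACS086_9 14. The median log2 fold of 0.25 was 0.30 with a pseudocount of 0.1 TPM, 0.12 with 10 TPM, 0.047 with the mean of plate folds, -0.076 with the filter at 10 TPM, 0.16 with no filter, 0.17 with the ChI kept, 0.38 without FACS051_5, 0.40 without FACS086_4, 0.21 without FACS086_9, 0.22 without cells under 2000 genes, and 0.17 with the highest value of each group left out. Direction was not followed over the settings for Kcnu1 and Kcnmb4os2, and Kcnu1 stood at 0.19 on FACS051_5. Among the others of the 17 genes, it turned for Kcnc1, at 0.15 with mean log2 values and 0.48 with upper quartile scaling. It also turned for Kcnmb4, at -1.16 with that scaling. For Kcnc1 that scaling raised a D1 cell with 648 genes from 1.96 to 753 TPM (multiplied by 385), and for Kcnmb4 it raised D2 MSN from 113.6 to 1373 TPM (by 12.1) and from 5.73 to 1091 TPM (by 190). With that scaling, 12 potassium channel genes lay above the fold and 9 below. Over all genes it gave 23.3% above and 21.2% below, in place of 18.4% and 12.9%. Of the genes found in 50% of the MSN, 17 at 1 TPM, 11 remained at 5 TPM and 10 at 10 TPM. Alternatives without the highest values, or without the D04 cell, and the change of the share counts on leaving out cells under 2000 genes, were chosen after seeing the data.

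No paired analysis was possible because the labels give a plate and a well but no replicate number shared by D1 and D2 cells, and the values come from no test. Folds within the larger plates, each of which held both groups, are given in their place. A group is 1 sample here, so nothing is known of the spread between animals. TPM keep no depth, so no limit of detection can be set for a gene at 0.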
